A study of Mus musculus with 8 samples.

Results

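The transcripts described here are 9 very long mRNAs of the cytoskeleton and of large scaffold proteins: Macf1, Dst, Plec, Ahnak, Flna, Myh9, Dync1h1, Huwe1 and Birc6. They were chosen by name, as very long messages that might collect in stress granules, and found by matching Ensembl identifiers to symbols. All 9 were found among the 39017 genes of the count table, and all 9 passed the filter on low counts, which left 18952 genes for testing. The series compared mouse embryonic fibroblasts from E13.5 embryos in 4 groups of 2 biological replicates each. Control total and Mettl3-knockout total libraries hold poly(A) RNA of unstressed cells. Control granule and Mettl3-knockout granule libraries hold poly(A) RNA of a stress granule-enriched fraction, spun out of cells given 500 µM sodium arsenite for 30 min. Knockout was induced with 500 nM 4-hydroxytamoxifen for 48 h, which activates a Cre recombinase. The driver of the Cre, and whether control cells carried it or received the drug, are not given in the sources used here, nor is whether replicates came from separate embryos. If they did not, the p-values measure only the spread between these samples.

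Stress granules are cytoplasmic condensates of mRNA and RNA-binding proteins that form when translation initiation stops, as it does under arsenite. Long mRNAs with few ribosomes offer many sites for RNA-RNA and RNA-protein contacts and are over-represented in them, and AHNAK and DYNC1H1 are transcripts often used to visualise granules. METTL3 is the enzyme that places N6-methyladenosine (m6A) marks on mRNAs, and YTHDF proteins that bind m6A are found in granules. The comparisons ask how strongly these giant mRNAs sit in the granule fraction, and whether that differs without METTL3.

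The members fall into 4 kinds by the protein they encode. Macf1, Dst and Plec encode plakins, which link actin, microtubules and intermediate filaments. Ahnak encodes a giant scaffold at the plasma membrane, Flna an actin cross-linker and Myh9 the heavy chain of non-muscle myosin IIA. Dync1h1 encodes the heavy chain of cytoplasmic dynein, the motor that walks to microtubule minus ends. Huwe1 encodes a HECT-type ubiquitin ligase and Birc6 a ubiquitin-conjugating inhibitor of apoptosis.

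Positions and sequences are those of GENCODE M21 on the GRCm38 build. Macf1 (ENSMUSG00000028649) lies on chromosome 4 from 123349633 to 123684360, Dst (ENSMUSG00000026131) on chromosome 1 from 33908225 to 34308661, and Plec (ENSMUSG00000022565) on chromosome 15 from 76170974 to 76232574. Ahnak (ENSMUSG00000069833) lies on chromosome 19 from 8989284 to 9076914, Flna (ENSMUSG00000031328) on chromosome X from 74223461 to 74249820, and Myh9 (ENSMUSG00000022443) on chromosome 15 from 77760587 to 77842175. Dync1h1 (ENSMUSG00000018707) lies on chromosome 12 from 110601452 to 110666945, Huwe1 (ENSMUSG00000025261) on chromosome X from 151800807 to 151935417, and Birc6 (ENSMUSG00000024073) on chromosome 17 from 74528295 to 74703356. The longest protein-coding transcript is 23495 nt for Macf1, 23279 nt for Dst, 18100 nt for Ahnak, 15768 nt for Birc6 and 15455 nt for Plec. It is 14579 nt for Huwe1, 14342 nt for Dync1h1, 8456 nt for Flna and 7433 nt for Myh9, against a median of 3027 nt over 15389 protein-coding genes tested. Coding sequence makes up between 79.1% (Myh9) and 97.1% (Dync1h1) of these transcripts, so their length is almost wholly coding. Exon structure differs widely among them. Ahnak has 5 exons, of which the last holds 17498 nt, and the last exon of Plec holds 7412 nt. Macf1 and Dst have 98 exons each, with longest internal exons of 5331 and 5292 nt, while no internal exon of Myh9 is longer than 352 nt. Exons of other genes overlap at most 3.63% of the exonic bases of a member (Dst).

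To show where the METTL3 complex could act, the 5 letters GGACT, a frequent form of the m6A consensus (GGACU in RNA), were searched on the transcript strand. Copies of this motif cannot overlap one another. Every member held it, from 7 copies in Myh9 to 27 in Macf1, and so did 91.8% of 15380 protein-coding transcripts and 100% of the 1050 that are at least as long as the Myh9 transcript. Density was 0.601 (Dst) to 1.18 (Flna) copies per kb, with 2 of 9 members above the median of 1.06 copies per kb over all protein-coding transcripts. A copy is a match of letters, not a mapped m6A site, and no m6A map was used here. The copy nearest the end of the coding sequence is shown for the 2 members with a called difference below and for Dync1h1, with 10 bases on each side and the motif in capitals, 5′ to 3′ on the transcript strand. The Macf1 copy is at chr4:123350897-123350921 (minus strand, exon 98 of 98), the Myh9 copy at chr15:77765803-77765827 (minus strand, exon 35 of 41) and the Dync1h1 copy at chr12:110666606-110666630 (plus strand, exon 77 of 77).
Macf1: gcctcccccaGGACTccaggtccca
Myh9: cccagatgaaGGACTgcatgcggga
Dync1h1: tcttcaccgtGGACTttgaaattgc
In Ahnak, whose last exon encodes tandem protein repeats, 4 copies stand exactly 201 bases apart with the same 25 bases around each. They start at chr19:9007259-9007283, chr19:9007460-9007484, chr19:9007661-9007685 and chr19:9007862-9007886 (plus strand).
Ahnak: tgcctgatgtGGACTtgcatctgaa

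Total counts were 67257220 to 123508539 per library, and no member had fewer than 3553 counts in any library, so counting error is small beside the spread between replicates. Levels are given as CPM, counts scaled to a common library size with the trimmed mean of M-values (TMM). Mettl3 stood at 25.4 and 24.9 CPM in control total, 15.7 and 15.4 in control granule, 6.005 and 7.35 in knockout total and 5.56 and 6.38 in knockout granule libraries. It was called lower in knockout cells in total RNA (log2 fold change -1.91, adjusted p = 0.0345 in edgeR's quasi-likelihood test, the test used throughout) and in granule RNA (-1.38, adjusted p = 0.0208). The total RNA call was lost with the replicate number as a block or with only the groups compared fitted, where 0 genes were called. All 12 fibroblast markers examined had at least 1 CPM in each group. Per library, summed markers reached 88.2 CPM for erythroid cells, 58.4 for haematopoietic cells and macrophages and 49.1 for neural and glial cells. Endothelial, skeletal muscle and pluripotent markers reached at most 20.1 CPM. The 5 epithelial genes were higher, led by Krt18 in each group except knockout total (Krt14). Their sum was 330 to 425 CPM in control total, 726 to 854 in control granule, 141 to 159 in knockout total and 580 to 767 in knockout granule libraries, and its part in the results was not tested. Mitochondrially encoded RNA made up 0.59% to 0.881% of 5 libraries, but 7.60% in knockout total replicate 1 and 6.16% and 8.81% in the knockout granule libraries. Knockout total replicate 1 stood apart from replicate 2, and some of the results that rest on it are given with and without it. In bulk samples, more granule RNA per cell and more cells with granules cannot be told apart, and fraction and arsenite were applied together, so a granule to total ratio holds both.

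**Figure D1:**
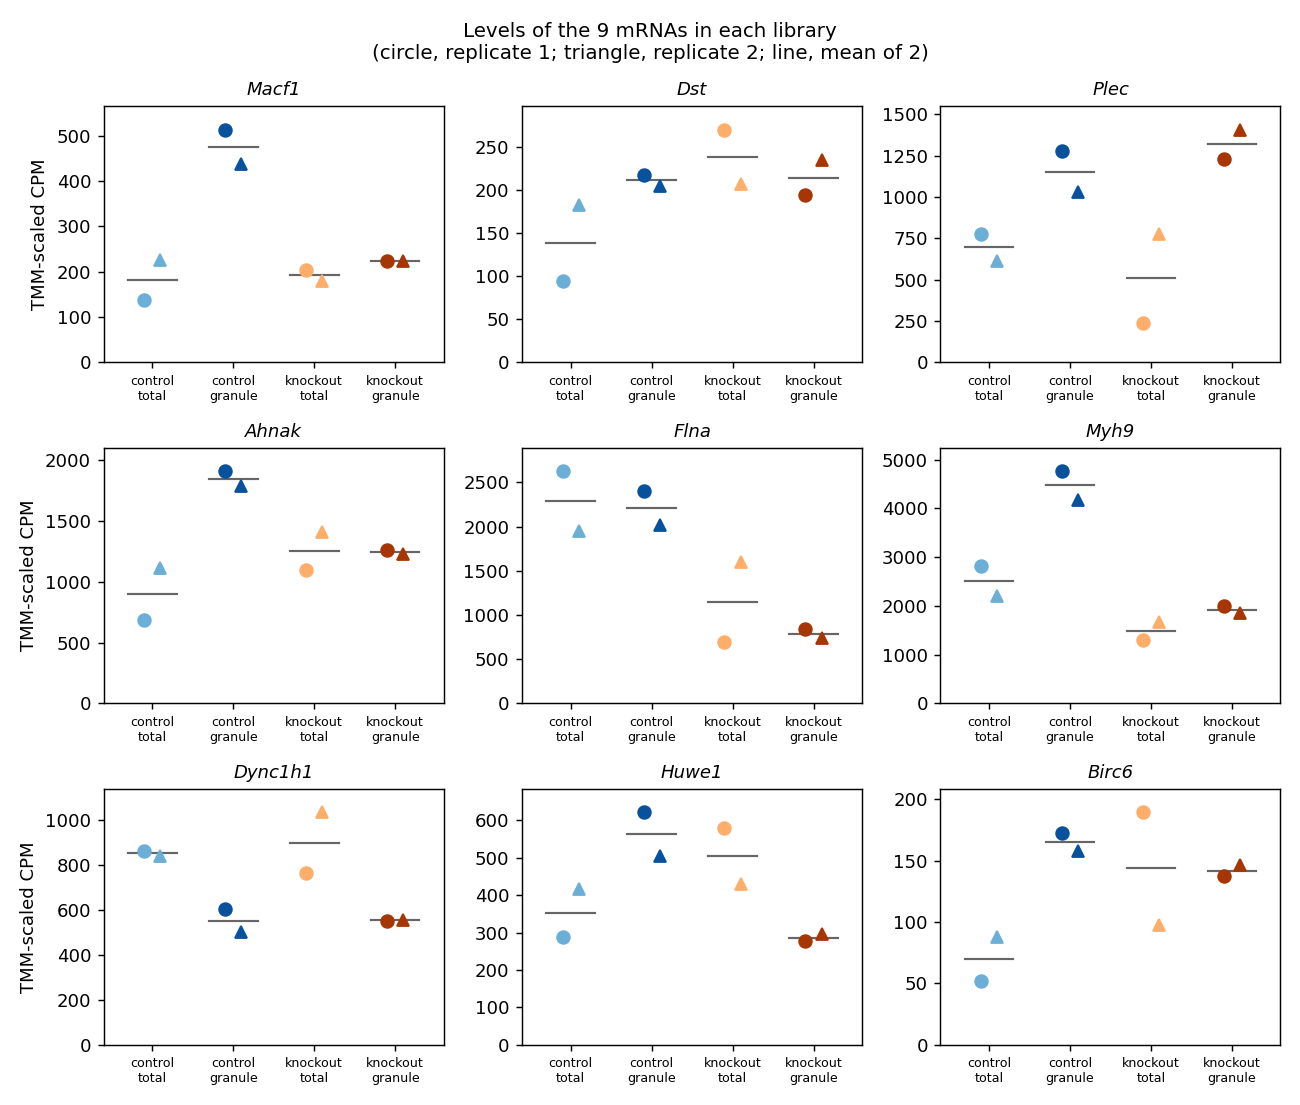
Level of each mRNA in the 8 libraries, as TMM-scaled CPM on linear axes that start at 0, with circles for replicate 1, triangles for replicate 2 and a line at the mean of 2 replicates. Granule libraries of control cells stand above total libraries in 7 panels and below them in that of Dync1h1, and the knockout total replicates of Plec lie at 235 and 778 CPM.

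In control cells 7 of the 9 giant mRNAs stood higher in the granule fraction than in total RNA, with both granule libraries above both total libraries. Macf1, which cross-links actin and microtubules, rose 2.62-fold and was the member that passed the test. Dync1h1 ran the other way, with both granule libraries below both total libraries, and Flna lay level. Of all genes, 10.1% were called in this comparison (1116 or 5.89% higher and 790 or 4.17% lower, adjusted p under 0.05, against 761 and 1258 with upper-quartile factors), so 1 called member of 9 is close to the background. Groups did not overlap for 35.2% of all genes in the higher direction and for 37.3% in the lower direction. The median log2 change of the members was 0.73, against -0.06 over all genes.

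Among the plakins, Macf1 stood at 136 and 226 CPM in control total and at 514 and 437 CPM in control granule libraries. The lower granule library was 1.93 times the higher total library, and the log2 fold change was 1.39 (95% interval 0.70 to 2.08, adjusted p = 0.0302). Dst, the plakin known for its role at hemidesmosomes and in neurons, stood at 94.5 and 183 CPM in total and 218 and 205 CPM in granule libraries. The groups did not overlap, but the log2 fold change of 0.61 had an interval that spanned 0 (-0.18 to 1.41, adjusted p = 0.274). Plec, which anchors intermediate filaments, stood at 776 and 613 CPM in total and 1276 and 1027 CPM in granule libraries. Its log2 fold change of 0.73 (-0.42 to 1.88, adjusted p = 0.358) had the widest interval of the members in this comparison.

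Ahnak stood at 683 and 1109 CPM in control total and 1909 and 1781 CPM in control granule libraries. Both granule libraries were above both total libraries, which themselves differed by 0.70 on the log2 scale. The log2 fold change was 1.04 (0.33 to 1.75, adjusted p = 0.0664). The mRNAs of the actin system split. Myh9, the most abundant member per kb of transcript in every group, stood at 2818 and 2206 CPM in total and 4769 and 4178 CPM in granule libraries, a log2 fold change of 0.83 (0.19 to 1.47, adjusted p = 0.0894). Flna stood at 2631 and 1954 CPM in total and 2407 and 2013 CPM in granule libraries, where the granule values lay between the total values (log2 fold change -0.05, interval -0.98 to 0.87, adjusted p = 0.946).

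Dync1h1 stood at 861 and 839 CPM in control total and 602 and 499 CPM in control granule libraries. It was the member with the lowest granule to total ratio, a log2 fold change of -0.63 (-1.23 to -0.02, adjusted p = 0.153). The ubiquitin enzymes lay on the other side. Huwe1 stood at 290 and 416 CPM in total and 622 and 506 CPM in granule libraries (log2 fold change 0.68, interval 0.01 to 1.35, adjusted p = 0.163). Birc6 stood at 52.3 and 87.7 CPM in total and 173 and 157 CPM in granule libraries, with a log2 fold change of 1.24 (0.36 to 2.12, adjusted p = 0.0758).

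The number of calls differed with the libraries fitted, which also changed the genes tested and the scaling. When only the 4 control libraries were fitted, 7 members were called, Macf1, Ahnak, Plec, Myh9, Huwe1 and Birc6 higher and Dync1h1 lower, against 42.4% of 17364 genes. The same 7 were called without knockout total replicate 1 (40.6% of all genes) or without replicate 2 (39.9%), which do not enter the comparison. Macf1 was not called when any 1 library of the other 3 groups was left out (adjusted p of 0.0805 to 0.205), nor with the replicate number as a block (adjusted p = 0.0679).

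**Figure D2:**
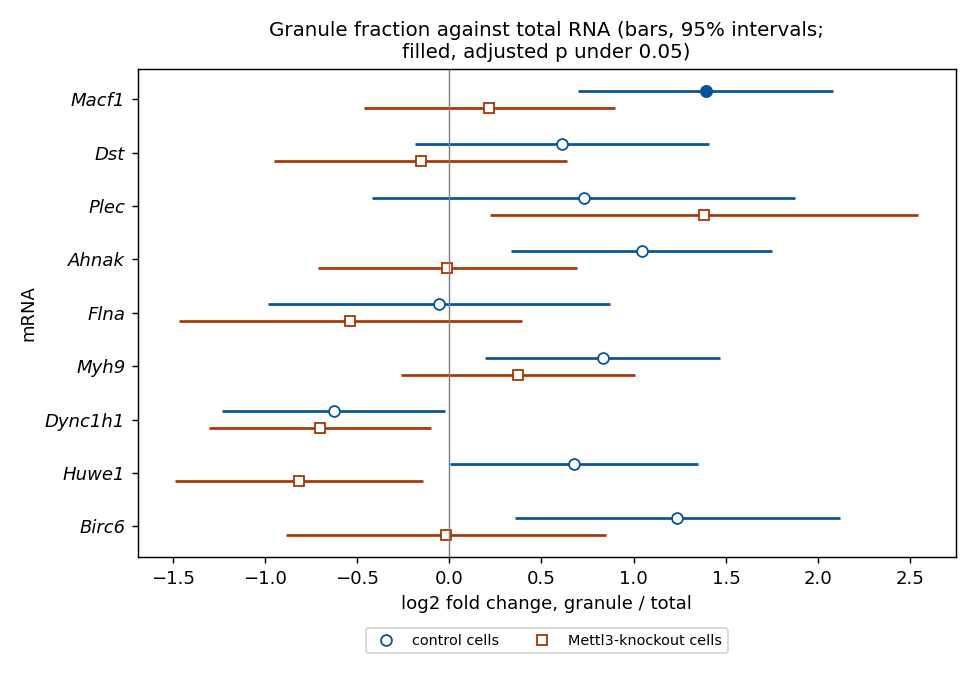
Log2 fold change of the granule fraction against total RNA for each mRNA, in control (circles) and Mettl3-knockout cells (squares), with 95% intervals from the fit and filled symbols for adjusted p under 0.05. Macf1 in control cells, at 1.39, is the filled symbol, and the knockout value lies left of the control value for every mRNA except Plec.

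In Mettl3-knockout cells the enrichment of the giant mRNAs was centred near 0 in the fit as reported. Over the alternatives its median ran from -0.44 to 0.05. The median log2 change of the members was -0.02, against 0.04 over all genes, and edgeR called 0 of 9 members, against 17.6% of all genes (9.17% higher and 8.47% lower). An unadjusted p under 0.05 was found for 3 members and 34.3% of all genes. DESeq2 called 3 members, Plec, Dync1h1 and Huwe1, and 26.9% of all genes, so both counts are close to the background. Plec, Macf1 and Myh9 had both granule libraries above both total libraries, and Dync1h1 and Huwe1 had both below. In the other 4 the libraries overlapped. Non-overlap in the higher direction held for 31.5% of all genes and in the lower direction for 26.5%.

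Macf1 stood at 204 and 179 CPM in knockout total and 223 and 224 CPM in knockout granule libraries. Its log2 fold change was 0.22 (-0.46 to 0.90, adjusted p = 0.642). Dst stood at 271 and 207 CPM in total and 194 and 235 CPM in granule libraries (-0.15, interval -0.95 to 0.64, adjusted p = 0.785). Plec was the exception among the plakins, at 235 and 778 CPM in total and 1231 and 1408 CPM in granule libraries. Its log2 fold change of 1.38 (0.22 to 2.54, adjusted p = 0.094) was 0.76 without knockout total replicate 1 and 2.36 without replicate 2, and it was called in both of these fits, against 34% and 48.2% of all genes.

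Ahnak stood at 1095 and 1405 CPM in knockout total and 1257 and 1225 CPM in knockout granule libraries, so that the granule values lay between the total values (-0.01, interval -0.71 to 0.69, adjusted p = 0.985). Birc6 stood at 189 and 97.6 CPM in total and 137 and 146 CPM in granule libraries, the same arrangement (-0.02, interval -0.88 to 0.85, adjusted p = 0.979). Its ratio was 0.53 without knockout total replicate 1 and -0.55 without replicate 2, so its direction was set by 1 library. Flna stood at 691 and 1598 CPM in total and 842 and 735 CPM in granule libraries (-0.54, interval -1.47 to 0.39, adjusted p = 0.388). Without knockout total replicate 1 its ratio was -1.03 and was called, and without replicate 2 it was 0.06. Myh9 stood at 1303 and 1670 CPM in total and 2003 and 1846 CPM in granule libraries (0.37, interval -0.26 to 1.01, adjusted p = 0.381).

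Dync1h1 was again lower in the granule fraction in both libraries. It stood at 763 and 1033 CPM in knockout total and 549 and 556 CPM in knockout granule libraries (-0.70, interval -1.30 to -0.10, adjusted p = 0.1). Huwe1 stood at 579 and 429 CPM in total and 277 and 297 CPM in granule libraries, a log2 fold change of -0.81 (-1.49 to -0.14, adjusted p = 0.0901). The ligase mRNA thus had granule values above total values in each control library and below them in each knockout library. When only the 4 knockout libraries were fitted, 0 members and 0% of 18141 genes were called.

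The difference of the granule to total ratio between knockout and control cells was fitted as an interaction. The ratio was lower in knockout cells for 8 of the 9 members, Plec being the exception, with a median of -0.77 on the log2 scale against 0.09 over all genes. The 1041 other mRNAs with transcripts of at least 7433 nt also lay lower, with a median of -0.50 and 33.0% of them above 0. With the GC trend of each library removed Plec was negative too, at -0.30. Dync1h1 was positive with upper-quartile factors (0.17), library size alone (0.10) and only genes of at least 5 CPM (0.12). Its difference changed sign in 4 of 19 alternatives, that of Plec in 2 and that of Flna in 1. EdgeR called 0 members and 0.517% of all genes (0.401% higher and 0.116% lower). In simulated data 0% of 4-fold changes were recovered in this comparison, so 0 calls do not show that a difference is absent. An unadjusted p under 0.05 was found for 4 members and 25.8% of all genes. DESeq2's Wald test called 1 member, Huwe1, and 14.4% of all genes. Huwe1 had the largest difference, -1.49 (-2.44 to -0.54, adjusted p = 0.104). Birc6 followed at -1.26 (-2.49 to -0.02, adjusted p = 0.187), Macf1 at -1.17 (-2.14 to -0.21, adjusted p = 0.144) and Ahnak at -1.05 (-2.05 to -0.06, adjusted p = 0.177). The smallest difference belonged to Dync1h1, at -0.07, whose interval of -0.92 to 0.78 still admits a difference of either sign. The remaining values were -0.77 for Dst, -0.48 for Flna, -0.46 for Myh9 and 0.65 for Plec, with adjusted p of 0.339 to 0.606 and intervals that all span 0. These values depended on the settings. Over the alternatives Dst ran from -1.45 to -0.38, Flna from -0.98 to 0.07, Myh9 from -1.25 to -0.01 and Plec from -0.30 to 1.59. With the replicate block and the GC trend removed, Myh9 was at -1.23 and Flna at -0.90, and neither was called. Huwe1 was called when the GC trend of each library was removed (-1.27, adjusted p = 0.0384, 9.49% of all genes), by DESeq2 (-1.52, adjusted p = 0.0135) and without either knockout total library. Over its 19 alternatives the adjusted p of Huwe1 ran from 0.000309 to 0.383. Without knockout total replicate 1 the called members were Huwe1, Macf1, Ahnak and Flna, all negative, against 18.6% of all genes. Without replicate 2 they were Huwe1, Macf1, Ahnak, Dst and Birc6, all negative, and Plec, positive, against 46.4%.

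Ratios of counts between members of the same library do not depend on the scaling between libraries. There were 0.793 and 1.32 Ahnak counts for each Dync1h1 count in control total, 3.17 and 3.57 in control granule, 1.43 and 1.36 in knockout total and 2.29 and 2.20 in knockout granule libraries. Relative to Dync1h1, Ahnak was therefore higher in every granule library than in every total library. Macf1 counts per Dync1h1 count were 0.158 and 0.27 in control total, 0.853 and 0.876 in control granule, 0.268 and 0.174 in knockout total and 0.405 and 0.402 in knockout granule libraries, again without overlap between fractions. Macf1 and Dst, the closest relatives among the members, did not keep a fixed ratio. Macf1 counts per Dst count were 1.44 and 1.24 in control total and 2.35 and 2.13 in control granule libraries, and 0.754 and 0.866 in knockout total and 1.15 and 0.952 in knockout granule libraries. Each control library had a higher Macf1 to Dst ratio than each knockout library. Huwe1 counts per Birc6 count were 5.54 and 4.74 in control total, 3.604 and 3.21 in control granule, 3.06 and 4.39 in knockout total and 2.02 and 2.03 in knockout granule libraries. These are descriptions, with no test.

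**Figure D3:**
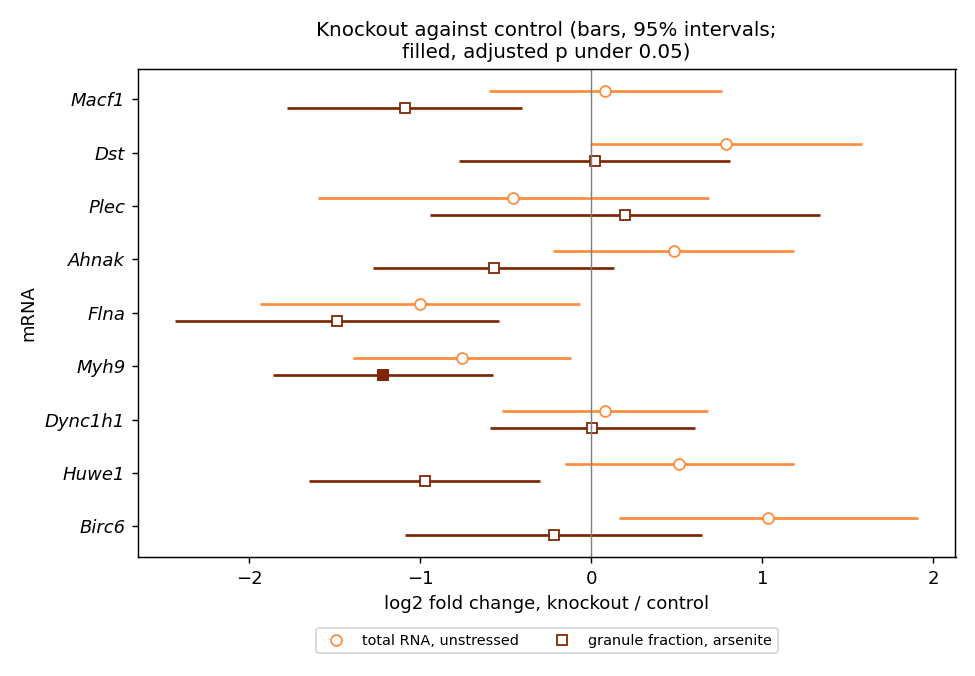
Log2 fold change of knockout against control for each mRNA, in total RNA of unstressed cells (circles) and in the granule fraction of arsenite-treated cells (squares), with 95% intervals and filled symbols for adjusted p under 0.05. Myh9 in the granule fraction, at -1.22, is the filled symbol, and Myh9 and Flna lie left of 0 in both fractions.

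Knockout and control granule libraries, whose replicates lay closer together than those of total RNA, were compared directly. Myh9, the heavy chain of the main contractile myosin of fibroblasts, fell 2.32-fold in knockout granules and was the member that passed the test. Flna, Macf1, Huwe1 and Ahnak had both knockout libraries below both control libraries, by 0.57 to 1.49 on the log2 scale, without passing it. Dync1h1, Dst and Plec overlapped between genotypes. Of all genes, 9.45% were called (1098 or 5.79% higher and 693 or 3.66% lower, against 1326 and 487 with upper-quartile factors), so that 1 called member of 9 is close to the background. Birc6 was also lower in both knockout libraries, which makes 6 members that did not overlap in the lower direction, a state shared by 36.6% of all genes, against 40.4% in the higher direction. The median log2 change of the members was -0.57, against 0.08 over all genes.

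Myh9 went from 4769 and 4178 CPM in control to 2003 and 1846 CPM in knockout granule libraries, a log2 fold change of -1.22 (-1.86 to -0.57, adjusted p = 0.0355). Flna went from 2407 and 2013 to 842 and 735 CPM, the largest difference among the members (-1.49, interval -2.43 to -0.54, adjusted p = 0.0604). Macf1 went from 514 and 437 to 223 and 224 CPM (-1.09, interval -1.78 to -0.40, adjusted p = 0.0583). Huwe1 went from 622 and 506 to 277 and 297 CPM (-0.98, interval -1.65 to -0.30, adjusted p = 0.0744). In these 4 mRNAs the higher knockout value was at most 0.587 of the lower control value. Ahnak went from 1909 and 1781 to 1257 and 1225 CPM (-0.57, interval -1.27 to 0.13, adjusted p = 0.262) and Birc6 from 173 and 157 to 137 and 146 CPM (-0.22, interval -1.09 to 0.65, adjusted p = 0.742).

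The remaining members lay at like levels in the 2 genotypes. Dync1h1 stood at 602 and 499 CPM in control and 549 and 556 CPM in knockout granule libraries (0.01, interval -0.59 to 0.61, adjusted p = 0.991). Dst stood at 218 and 205 against 194 and 235 CPM (0.02, interval -0.77 to 0.81, adjusted p = 0.979), and Plec at 1276 and 1027 against 1231 and 1408 CPM (0.20, interval -0.94 to 1.34, adjusted p = 0.828). These intervals admit knockout levels up to 1.52-fold higher for Dync1h1 and 2.53-fold higher for Plec. When only the 4 granule libraries were fitted, 5 members were called, Myh9, Flna, Macf1, Huwe1 and Ahnak, all lower in knockout, against 57.3% of 18066 genes. Leaving out knockout total replicate 1 or replicate 2 called the same 5, against 39% and 38.9% of all genes. Myh9 was not called when any 1 library of the other 3 groups was left out (adjusted p of 0.0584 to 0.283) or with the replicate block (adjusted p = 0.0766). It also missed the threshold when scaled by library size alone or by the upper quartile, with only genes of at least 5 CPM, and with the length trend removed (adjusted p of 0.0549 to 0.0798). The share of mitochondrial transcripts differed between these groups (0.59% and 0.678% in control, 6.16% and 8.81% in knockout granules), and its part in the result was not tested.

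In total RNA of unstressed cells edgeR called 0 members between genotypes, against 0.412% of all genes (0.274% higher and 0.137% lower). An unadjusted p under 0.05 was found for 3 members and 24.8% of all genes, and DESeq2 called 0 members and 12.9% of all genes. The median log2 change of the members was 0.08, against 0.02 over all genes. Myh9 stood at 2818 and 2206 CPM in control and 1303 and 1670 CPM in knockout total libraries (-0.76, interval -1.39 to -0.12, adjusted p = 0.166), and Flna at 2631 and 1954 against 691 and 1598 CPM (-1.003, interval -1.94 to -0.07, adjusted p = 0.185). Both mRNAs had every knockout library below every control library, as in the granule fraction. Birc6 stood at 52.3 and 87.7 against 189 and 97.6 CPM (1.04, interval 0.16 to 1.91, adjusted p = 0.166), Dst at 94.5 and 183 against 271 and 207 CPM (0.79, interval -0.01 to 1.58, adjusted p = 0.205), and Huwe1 at 290 and 416 against 579 and 429 CPM (0.52, interval -0.15 to 1.18, adjusted p = 0.295). In these 3 the knockout libraries were the higher ones, and all 3 intervals are wide. Non-overlap held for 24.4% of all genes in the higher and for 24.7% in the lower direction. Macf1, Dync1h1, Ahnak and Plec overlapped, with log2 changes of 0.08, 0.08, 0.48 and -0.46. Without knockout total replicate 2, 6 members were called, Dst, Huwe1 and Birc6 higher and Plec, Flna and Myh9 lower, against 47.8% of all genes. Without knockout total replicate 1, 0 members were called, against 5.52%.

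**Figure D4:**
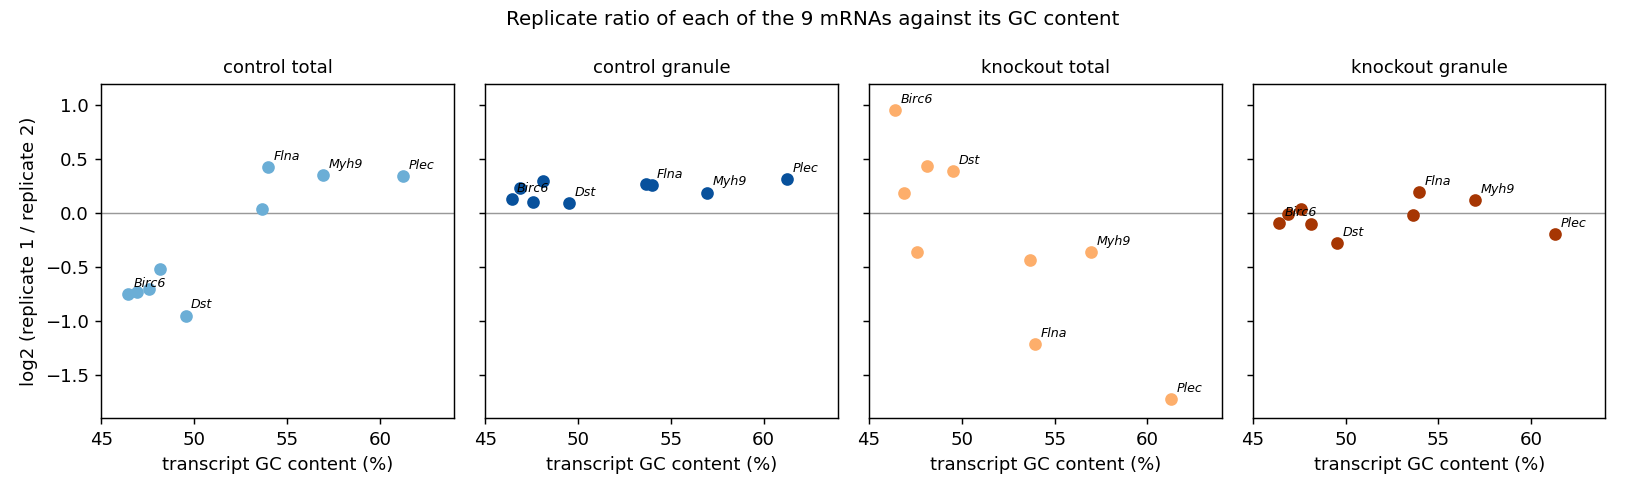
Log2 ratio of replicate 1 to replicate 2 (vertical axis) of each mRNA against the GC content of its longest protein-coding transcript in percent (horizontal axis), 1 panel per group. In the knockout total panel the points run from 0.96 for Birc6 down to -1.73 for Plec, in the control total panel they run upward with GC content, and the granule panels span -0.27 to 0.31.

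The spread between total replicates was ordered by the GC content of the members. Birc6 (46.4% GC), Macf1 (46.9%), Ahnak (47.6%), Huwe1 (48.1%) and Dst (49.5%) are GC-poor, while Dync1h1 (53.7%), Flna (54.0%), Myh9 (57.0%) and Plec (61.3%) are GC-rich. In control total, the log2 ratio of replicate 1 to replicate 2 was -0.95 to -0.52 for the 5 GC-poor mRNAs and 0.04 to 0.43 for the 4 GC-rich ones. In knockout total the order was turned, with -1.73 for Plec, -1.21 for Flna, -0.44 for Dync1h1 and -0.36 for Myh9, and 0.96 for Birc6, 0.43 for Huwe1, 0.39 for Dst and 0.19 for Macf1. Ahnak, at -0.36, was the GC-poor member out of this order. In the granule groups the ratios were 0.09 to 0.31 in control and -0.27 to 0.20 in knockout. Across 10058 protein-coding genes (mean of 5 CPM or more), Spearman's rho of this ratio with GC content was 0.767 in control total and -0.738 in knockout total, as a description of genes that share the same libraries.

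With the GC trend of each library removed, the giant mRNAs of control cells had log2 granule to total ratios of 1.21 for Myh9, 1.19 for Macf1, 1.16 for Plec and 0.99 for Birc6, and these 4 were called (adjusted p of 0.00823 to 0.0228), against 20.1% of all genes. Over all alternatives their adjusted p ran up to 0.205 for Macf1, 0.37 for Birc6, 0.591 for Myh9 and 0.973 for Plec. In knockout cells Plec was called higher at 0.85 and Dync1h1 at -0.84 and Huwe1 at -0.69 lower, against 32.5% of all genes. Between genotypes in the granule fraction Flna (-1.59), Myh9 (-1.40), Macf1 (-1.02) and Huwe1 (-0.93) were called, all lower, against 24% of all genes. In total RNA the Myh9 difference was then -0.15 and that of Flna -0.70, and neither was called, against 4.07% of all genes.

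**Figure D5:**
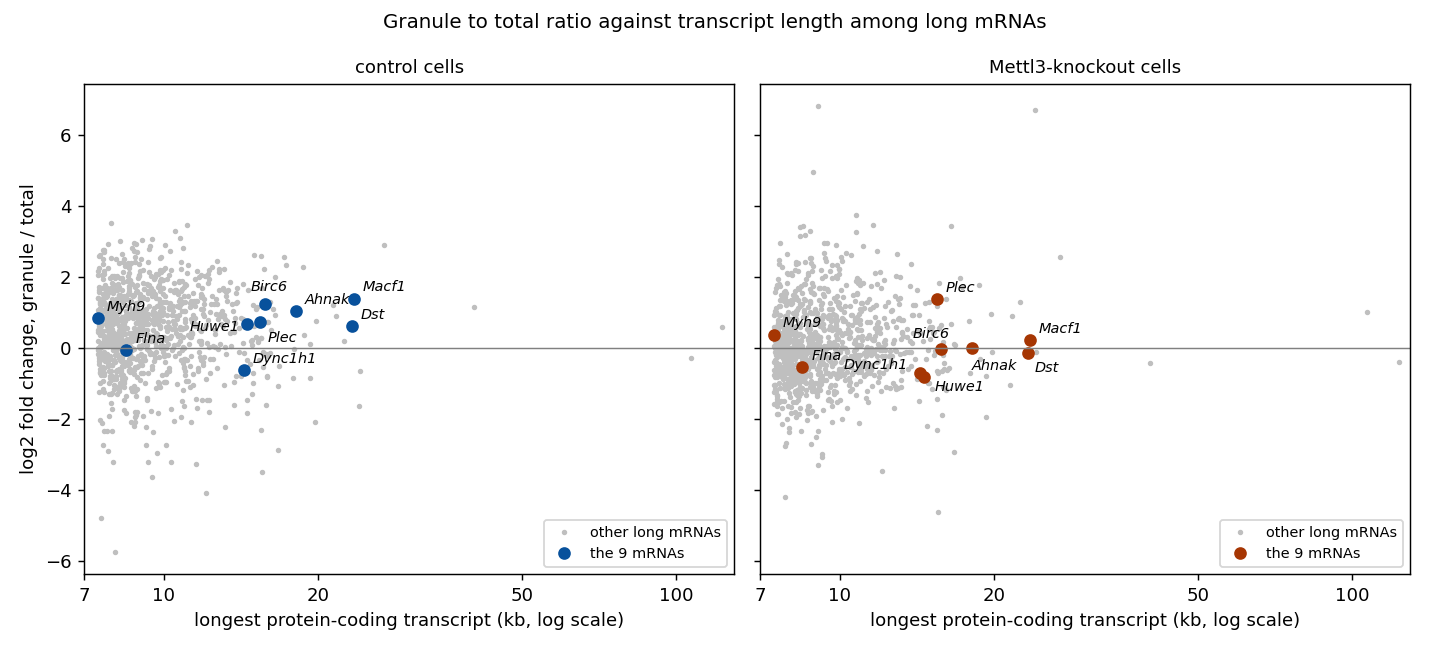
Log2 granule to total ratio (vertical axis) against the length of the longest protein-coding transcript in kb (horizontal axis, log scale) for the 9 mRNAs, labelled, and the 1041 other mRNAs tested with transcripts of at least 7433 nt, in control and in Mettl3-knockout cells. The 9 mRNAs lie within the cloud of other long mRNAs, with Dync1h1 below 0 in both panels and Plec highest of the 9 in knockout cells.

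The members were set beside the 1041 other protein-coding genes with a transcript at least as long as that of Myh9. In control cells the other long mRNAs had a median granule to total ratio of 0.55 on the log2 scale, and 69.5% of them were above 0. The members had 0.73, with 7 of 9 above 0. From the highest, Macf1 ranked 231, Birc6 274 and Ahnak 335 among the 1050 long mRNAs, and Dync1h1 ranked 888, so the giant mRNAs spread over most of the range. In knockout cells the medians were 0.04 for other long mRNAs and -0.02 for the members. Between genotypes in the granule fraction the median was -0.57 for the members and -0.002 for other long mRNAs (-0.15 with length taken as the union of exons). Lists of related genes, given below, had medians of -0.80 to -0.16 in this comparison. Flna ranked 1025, Myh9 996, Macf1 971, Huwe1 932, Ahnak 790 and Birc6 642 from the highest, and Dync1h1 520, Dst 510 and Plec 444. In total RNA the other long mRNAs had a median of 0.52 and the members 0.08. When the length trend of each library was removed, the control enrichment of Macf1 was 0.62 (adjusted p = 0.144), that of Birc6 0.55, of Ahnak 0.32 and of Myh9 0.30. The ratios of Plec, Huwe1 and Dst were then -0.04, -0.01 and -0.13, and that of Flna -0.65. Dync1h1 was then at -1.35 and was called lower, against 11.1% of all genes (adjusted p = 0.0499, with values from 0.00822 to 0.575 over its alternatives).

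Other genes of the same systems were taken from lists of partners and relatives. Calls of these genes come from the fit as reported and were not followed over the alternatives. Their counts stand beside the shares of all genes called, 5.89% higher and 4.17% lower in control granules, 9.17% and 8.47% in knockout granules, 0.274% and 0.137% between genotypes in total RNA, and 5.79% and 3.66% between genotypes in granules. Of the 1041 other long mRNAs, 184 were called higher and 34 lower in control granules (20.9% in all), and 136 and 83 in knockout granules (21%). Among 41 other long cytoskeletal and scaffold genes, control granules had 10 called higher and 2 called lower, with a median of 0.68. Akap9, a scaffold of the centrosome and Golgi, rose by 2.22, the unconventional myosin Myo9a by 2.19 and the golgin Golga4 by 2.06. Myh14, the heavy chain of non-muscle myosin IIC, fell by 2.23 and Tln2, the talin that couples integrins to actin, fell by 1.45. In knockout cells 9 were called higher and 4 lower (median 0.49), led by Map1a at 2.74 and Ank3 at 2.23, while Ank2 fell by 1.498 and Vcl by 1.17. Between granule groups Vcl, which encodes the focal adhesion protein vinculin, was called lower in knockout at -2.76 and Ppl at -1.45, and Map1a higher at 1.04. In total RNA Myh14 was called lower at -3.40.

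Of 25 dynein and dynactin genes, 2 were called higher in control granules, the adaptor Hook3 at 2.13 and the regulator Pafah1b1 at 1.29, with a median of 0.37. The heavy chain mRNA Dync1h1 stood at -0.63. In knockout cells the light intermediate chain Dync1li1 fell by 0.93, and 0 were called higher (median -0.41). Between granule groups Nde1 was called lower at -1.22. Of 13 partners of non-muscle myosin II, Rock1 at 3.34, Rock2 at 2.75 and Ppp1r12a at 2.47 were called higher and Myh14 lower in control granules. These encode the kinases that activate the myosin and a subunit of the phosphatase that opposes them. In knockout cells 5 of the 13 were called higher, with Rock1 at 2.56, Ppp1r12a at 2.43 and S100a4 at 2.35. The regulatory light chain Myl9 fell by 2.76 between control and knockout total RNA, where the heavy chain Myh9 had -0.76. Mylk was called higher in knockout granules at 1.39.

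Of 15 partners of plakins, filamins and Ahnak, Itga6 was called higher in control granules at 1.41. In knockout cells Itgb4 at 2.04, Rflnb at 1.74 and Fblim1 at 1.38 led 4 called higher. Levels of Itgb4 were low, at 1.40 and 1.54 CPM in knockout total and 5.75 and 6.36 CPM in knockout granule libraries. Vim, the intermediate filament protein that plectin binds, was called lower in knockout granules at -1.34, and Rflnb, a filamin regulator, higher at 1.52. Of 25 ubiquitin ligases and related genes, Ube3a at 2.54 and Usp34 at 2.07 were called higher in control granules and Rnf213 lower at -2.87, with a median of 0.98. In knockout cells the median was -0.40, with Ube3a at 2.01 and Usp34 at 1.92 called higher and Rnf213 at -2.94, Ubr4 at -1.09 and Uba1 at -0.95 lower. Ube3a (36.9% GC) stood at 35.5 and 12.4 CPM in knockout total libraries and Usp34 (41.5%) at 107 and 47.9. Rnf213 (50.9%) stood there at 1836 and 1255 CPM, Ubr4 (54.5%) at 425 and 536 and Uba1 (52.0%) at 704 and 924. Of these 25 genes, 1 had a higher ratio in knockout than in control cells and 0 were called in that difference. Between granule groups Rnf213 at 1.53 was called higher and Ube3c at -1.68 and Uba1 at -1.15 lower. Of 22 short cytoskeletal genes, Arpc5 was called higher in control granules at 1.19 (median 0.27). In knockout cells Tmsb4x at 1.45, Tubb2a at 1.37 and Arpc1b at 1.15 were called higher, and Actg1 at -1.901 and Dstn at -1.44 were lower in knockout than in control granules. Medians of these lists stand beside -0.06 over all genes in control cells and 0.04 in knockout cells. Between genotypes in granules, partners of plakins, filamins and Ahnak had a median of -0.80 and ubiquitin ligases and related genes -0.58. Dynein and dynactin genes had -0.55, short cytoskeletal genes -0.46, other long cytoskeletal genes -0.21 and myosin II partners -0.16. The members had -0.57 and all genes 0.08. Nothing is read from a list beyond its counts.

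Per kb of transcript, Myh9 and Flna were the most abundant members in every group and Dst, Birc6 and Macf1 the least. Myh9 had 338 ± 58.2 CPM per kb in control total and 602 ± 56.2 in control granule libraries (SD, n = 2). Birc6 had 4.44 ± 1.59 and 10.5 ± 0.683, and Dst 5.95 ± 2.67 and 9.09 ± 0.401 CPM per kb in the same groups. In control total Dst stood above Birc6 within each library, at 4.06 against 3.31 and 7.84 against 5.56 CPM per kb. There Ahnak (49.5 ± 16.6) overlapped both Plec (44.9 ± 7.47) and Dync1h1 (59.3 ± 1.04). In control granules Ahnak reached 102 ± 5.02, Plec 74.5 ± 11.4 and Dync1h1 38.4 ± 5.06, an order in which Ahnak and Dync1h1 lay apart. Together the 9 mRNAs took 0.843% and 0.828% of all counts in control total, 1.199% and 1.04% in control granule, 0.48% and 0.776% in knockout total and 0.696% and 0.673% in knockout granule libraries. The 95% Wilson intervals of these shares are at most 0.00437 percentage points wide and cover counting error only. The counting program is not given, so PCR copies of a molecule may have been counted as separate reads.

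The pattern of each gene over the 8 libraries was compared with the mean pattern of the members, as the root mean square difference of log2 CPM centred per gene. Among members Ahnak lay nearest to the mean (0.219) and Plec (0.696) and Flna (0.67) farthest. Outside the members, of 10063 protein-coding genes compared, the nearest were Zfand1 (0.0881), Yap1 (0.0938), Ddhd2 (0.0946), D5Ertd579e (0.0964) and Inpp4a (0.0986). Yap1, the Hippo pathway effector, stood at 193 and 231 CPM in control total, 361 and 327 in control granule, 197 and 221 in knockout total and 207 and 189 CPM in knockout granule libraries. As for the mean of the members, the control granule libraries were the 2 highest of the 8.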

How the data were processed

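Poly(A) RNA of 8 libraries was sequenced, and the authors deposited raw gene counts under Ensembl identifiers; STAR, DESeq2 and the GRCm38/mm10 build are named per the submitters' processing notes, and the counting program, strand setting and annotation release are not given in the sources used here. Of 39017 identifiers, 37693 matched GENCODE M21, from which symbols, lengths and GC content were taken.

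Counts were TMM-scaled and filtered with filterByExpr, leaving 18952 genes. The 4 group means were fitted together with edgeR 4.0.16 (quasi-likelihood, robust) in R 4.3.3, with 4 residual degrees of freedom. The 5 contrasts were Benjamini-Hochberg adjusted over all genes tested and called at adjusted p under 0.05. Intervals are 95% intervals of the fit. The script was tested on simulated data with 100 changed genes at each fold change and comparison. Of 2-fold changes, 0% were recovered in each of the 5 comparisons. Of 4-fold changes, 37% were recovered in control and 15% in knockout granules against total RNA. Between genotypes, 23% were recovered in total RNA, 20% in granules and 0% in the difference. A count of 0 members called therefore does not show that changes of these sizes are absent. The simulation changed fewer genes than the 1906, 3343 and 1791 called in the granule comparisons. Recovery can differ with that number, so these percentages need not hold for the data. Total counts were 67257220 to 123508539 per library. DESeq2 1.42.0, other scalings and filters, removal of GC or length trends, a replicate block, separate fits and leaving out each library were tried.

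The members and gene lists were chosen with earlier results of these data known. Named are every member, at most 3 called genes per list, comparison and direction, and the 5 genes nearest in pattern. Some genes that this rule names are not reported here.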

Additional observations from a re-analysis of the deposited data

How the results depend on the processing

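With 2 libraries a group, the number of members called depended on the settings, while 0 called values changed sign. Some values not called did change sign. Between genotypes in granules Dync1h1 did so in 11 of 20 alternatives and Dst in 8. Ahnak did in 8 for knockout granules against total RNA, and Macf1 in 7 between genotypes in total RNA. The share of all genes called, in brackets, moved with it. In control granules against total RNA, 1 member was called as reported (10.1%). The count was 4 with DESeq2's Wald test (21.3%), without the filter (13.2%), with the GC trend removed (20.1%) and with the block and the GC trend removed (16.4%). It was 7 when only the groups compared were fitted (42.4%), and 0 to 7 when 1 library was left out. In knockout granules against total RNA, with 0 as reported (17.6%), it was 3 with DESeq2 (26.9%) and with the GC trend removed (32.5%), 2 without the filter (17%), and 2 with the block and the GC trend removed (28.2%). It was 1 with the length trend removed (19.9%), and 0 to 3 when 1 library was left out. Between genotypes in total RNA, with 0 as reported (0.412%), it was 2 without the filter (11.2%) and 0 to 6 when 1 library was left out. Between genotypes in granules, with 1 as reported (9.45%), it was 0 with upper-quartile factors (9.57%), library size alone (8.21%) and a mean of 5 CPM or more (7.92%). It was 4 with DESeq2 (17.8%), without the filter (11.2%), with the GC trend removed (24%) and with the block and the GC trend removed (19.8%). It was 2 with the length trend removed (9.89%), 5 when only the groups compared were fitted (57.3%), and 0 to 5 when 1 library was left out. For the difference between genotypes, with 0 as reported (0.517%), it was 1 with DESeq2 (14.4%) and with the GC trend removed (9.49%), 2 without the filter (11.5%), and 0 to 6 when 1 library was left out. The cause of these moves was not tested.

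With the replicate block alone the count was 0 in all 5 comparisons, against 0% to 10% of all genes. Deviations of same-numbered libraries correlated by -0.254 to 0.0954 between groups, so the numbers do not show a pairing. After seeing the data, the numbers of knockout total were crossed in the block because of the -0.254, which gave 2 members in control granules, 2 between genotypes in granules and 0 elsewhere.

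Calls over all genes moved too, from 1906 (control), 3343 (knockout), 78 (total RNA), 1791 (granules) and 98 (difference) as reported to between 0 and 10359 over the alternatives. The median log2 change of the members ran from -0.01 to 1.004 in control granules, where the low end is the fit with the length trend removed. It ran from -0.44 to 0.05 in knockout granules and from -1.45 to -0.46 for the difference between genotypes. Between genotypes it ran from -0.34 to 0.56 in total RNA and from -0.68 to -0.39 in granules. Upper-quartile factors moved the median of all genes by -0.23 in control granules against total RNA and by 0.24 in the difference.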
